A study of Homo sapiens with 8 samples.

Results

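The MYC, MAX and MXD network was taken as 10 genes, MYC, MYCN, MAX, MNT, MXI1, MXD1, MXD3, MXD4, MLX and MLXIP, each the row of the deposited gene table that carries its symbol, out of 61906 genes listed. All 10 symbols were found, and 9 of the genes passed the filter on low values described below. U251 is a human glioblastoma cell line, used here with its unmodified (WT) genotype, and LLY-283 is an inhibitor of the arginine methyltransferase PRMT5. Cultures were exposed to vehicle (DMSO) or to 100 nM LLY-283 for 24 h, with 4 libraries of poly(A) RNA per group. The measurements therefore describe 1 line, 1 dose and 1 time point. The labels call the 4 libraries of a group biological replicates without saying what separated them, so the p-values measure the spread between these libraries, which may be partly technical.

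The network is a set of basic helix-loop-helix leucine zipper proteins that compete for a shared partner. MYC and its paralog MYCN activate transcription as dimers with MAX at the E-box CACGTG. MNT, MXI1 and the MXD proteins bind the same partner and the same element but recruit the SIN3-HDAC corepressor, so that they oppose MYC. MLX is a second hub that pairs with the glucose-sensing activator MLXIP (MondoA) and with some of the repressors. MYC drives growth, ribosome production and the cell cycle in many tumors, glioblastoma included.

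Expression was deposited as TPM (an abundance scaled to transcript length and to the sum of all transcripts of a library), which keeps no record of read numbers, so that sequencing depth is not known and no counting error can be given. The number of genes above 0 lay between 24386 and 24757 in vehicle and between 24042 and 24315 in LLY-283 libraries, and replicates correlated at 0.963 to 0.971 across the genes tested, which are not independent replicates. Mitochondrial genes took 10.2% or more of the TPM in 7 libraries and 7.19% in LLY-283 replicate 4, and network genes whose call changes without that library are given with it and without it. The glioma markers VIM, CD44, NES, GFAP and SOX2 had means from 85.6 to 4301.1 TPM in both groups and S100B 3.21 TPM or more, while PTPRC, EPCAM, PECAM1 and RBFOX3, which mark leukocytes, epithelium, endothelium and neurons, stayed at or below 0.1 TPM in all 8 libraries and MBP, of oligodendrocytes, at or below 0.61 TPM. Of the 6 glioma markers, GFAP (log2 fold change -0.25, adjusted p = 8.20e-04, limma), SOX2 (-0.27, 3.49e-04) and NES (-0.17, 7.31e-04) decreased, CD44 increased (0.11, 0.0168), each without overlap between the groups, and VIM (-0.06, 0.195) and S100B (-0.43, 0.0781) did not pass the test. The part of these shifts in the results below was not tested. PRMT5, which the drug inhibits as a protein, did not differ detectably in transcript level (log2 fold change 0.01, adjusted p = 0.944, limma).

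In vehicle-treated cells MLX was the most abundant transcript of the network, with a mean level of 62.0 ± 1.35 TPM (SD, n = 4), followed by MAX at 46.2 ± 3.20 TPM. MLXIP (38.1 ± 2.55 TPM), MXD3 (36.0 ± 1.82 TPM) and MYC (35.4 ± 1.23 TPM) came next, and their ranges overlapped, so that their order could not be told. MNT (20.5 ± 1.07 TPM), MXD4 (13.7 ± 0.995 TPM), MXI1 (10.1 ± 0.409 TPM) and MXD1 (1.21 ± 0.295 TPM) followed, each with a range apart from its neighbors. MYCN was listed at 0 in all 8 libraries and was not tested, and MYCL, the other MYC paralog, lay at or below 0.74 TPM.

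The comparison of LLY-283 and vehicle used limma on log2(TPM + 0.1) for the 14478 genes averaging 1 TPM or more over the 8 libraries, with p-values adjusted by Benjamini-Hochberg, and fold changes are on that scale. A gene was called at an adjusted p-value under 0.05. Of the 9 genes of the network tested, 3 decreased (MXD3, MXD4 and MAX) and 0 increased (limma), while at an unadjusted p under 0.05 the counts were 3 lower and 1 higher (MLX). Over all genes tested 17.6% decreased and 8.61% increased. Above 1.5-fold, 1 gene of the network (MXD3) decreased and 0 increased, against 3.48% and 0.394% of all genes. The 4 LLY-283 values lay below the 4 vehicle values for MXD3 and MXD4, as for 19.6% of all genes, and above them for 0 genes of the network, against 9.63%. The median log2 fold change was -0.10 in the network and -0.05 over all genes tested. The network median ranged from -0.13 to -0.04 over the alternatives and was -0.05 without LLY-283 replicate 4, against -0.04 over all genes. The balance over all genes depended on the processing, with 1247 increased and 2541 decreased genes here, 1871 and 1820 after quantile normalization, 2165 and 1714 under median-of-ratios scaling, and 2801 and 1644 with the trend on GC content and length removed.

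**Figure D1:**
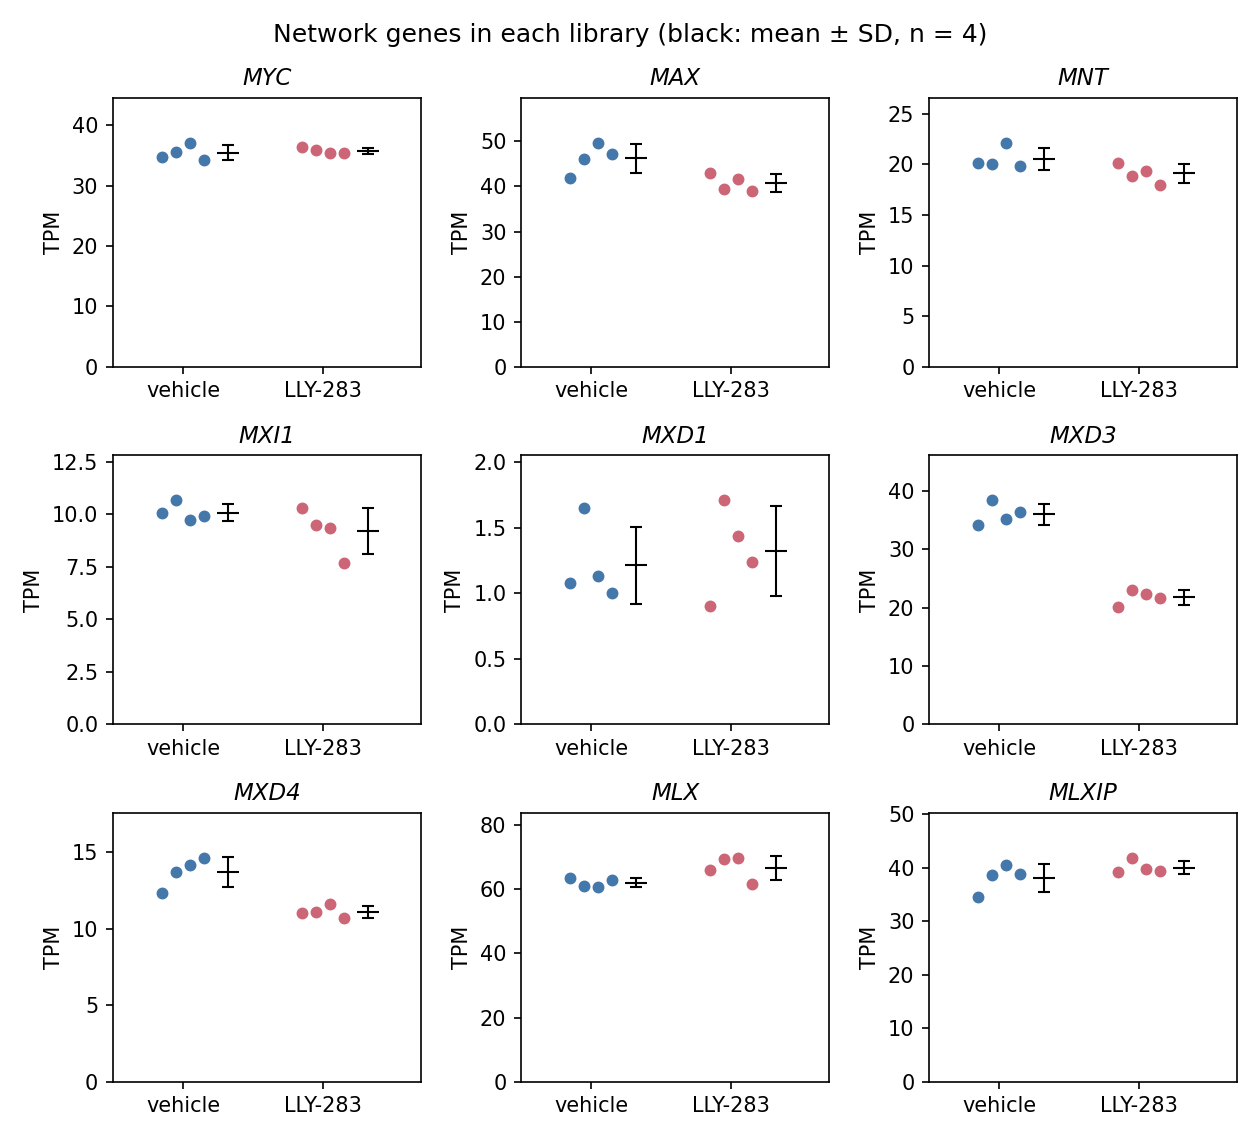
TPM of the 9 tested network genes in each library, with vehicle in blue and LLY-283 in red (linear axes from 0) and the mean ± SD of 4 libraries in black. The MXD3 values fall from 34.17 to 38.39 TPM in vehicle to 20.03 to 23.01 TPM in LLY-283, while the MYC values of the groups overlap.

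The clearest difference in the network was in MXD3, a repressor partner of MAX that is characteristic of proliferating cells, in contrast to MXD1 and MXD4, which are known for their rise with differentiation. MXD3 (ENSG00000213347, chromosome 5, 177301461 to 177312757 of GRCh38, minus strand, 6 exons in its canonical transcript) stood at 34.17, 38.39, 35.11 and 36.35 TPM in vehicle and at 20.03, 23.01, 22.4 and 21.67 TPM in LLY-283 libraries. The highest treated value lay well below the lowest vehicle value. Its mean level went from 36.0 ± 1.82 to 21.8 ± 1.29 TPM (SD, n = 4 each), and it fell by 39.4% on the fitted scale. The log2 fold change was -0.72 (SE 0.0538, 95% interval -0.84 to -0.60, adjusted p = 5.06e-05, limma), and by p-value MXD3 ranked 49 among the 14478 genes tested. In bulk RNA, fewer cells with a transcript and less of it per cell cannot be told apart.

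MXD4 moved in the same direction with a smaller change. MXD4 (ENSG00000123933, chromosome 4, 2247432 to 2262109, minus strand, 6 exons) had 12.35, 13.71, 14.2 and 14.65 TPM in vehicle libraries and 11.03, 11.13, 11.64 and 10.72 TPM in LLY-283 libraries. All 4 treated values were below all 4 vehicle values, and the vehicle libraries varied more among themselves. Its level decreased by 18.7% on the fitted scale, with a log2 fold change of -0.30 (SE 0.0609, 95% interval -0.43 to -0.16, adjusted p = 0.00695, limma). MXD3 and MXD4 decreased in the comparison and in all 19 alternatives, which included each library left out in turn. Their log2 fold changes without LLY-283 replicate 4 were -0.72 and -0.28.

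The other 3 repressor partners did not pass the test. MXI1, a further MXD-type repressor, had 10.06, 10.67, 9.73 and 9.9 TPM in vehicle and 10.31, 9.48, 9.36 and 7.67 TPM in LLY-283 libraries, with a log2 fold change of -0.14 (95% interval -0.33 to 0.06, adjusted p = 0.271, limma). The lowest of these was LLY-283 replicate 4, the library with the lower mitochondrial share, and without it the log2 fold change was -0.05 (adjusted p = 0.527). MNT, the widely expressed antagonist of MYC, had 20.12, 20.01, 22.12 and 19.84 TPM in vehicle and 20.15, 18.89, 19.38 and 17.97 TPM in LLY-283 libraries (log2 fold change -0.10, 95% interval -0.22 to 0.01, adjusted p = 0.175). Without vehicle replicate 3, the highest library, the log2 fold change of MNT was -0.067. MXD1, the repressor linked to terminal differentiation, was near the limit of the filter, with 1.08, 1.65, 1.13 and 1 TPM in vehicle and 0.9, 1.71, 1.44 and 1.24 TPM in LLY-283 libraries. Its interval of -0.44 to 0.65 on the log2 scale leaves a change in either direction possible.

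MAX, the obligate partner of MYC and of the repressors, was lower after LLY-283 by a small margin that depended on the processing. MAX (ENSG00000125952, chromosome 14, 65006174 to 65102695, minus strand, 5 exons) had 41.97, 46.08, 49.66 and 47.15 TPM in vehicle libraries and 43.02, 39.37, 41.67 and 39.02 TPM in LLY-283 libraries. The groups overlapped, because vehicle replicate 1 lay below LLY-283 replicate 1. MAX fell by 11.7% on the fitted scale, from a mean of 46.2 ± 3.20 to 40.8 ± 1.91 TPM, with a log2 fold change of -0.18 (SE 0.0552, 95% interval -0.30 to -0.06, adjusted p = 0.0399, limma). The call was lost in 12 of 19 alternatives, in which all log2 fold changes stayed negative (-0.22 to -0.08 over the 19). Without LLY-283 replicate 4 the adjusted p-value was 0.0815.

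MYC itself did not differ detectably. MYC (ENSG00000136997, chromosome 8, 3 exons) had 34.78, 35.49, 37.06 and 34.21 TPM in vehicle libraries and 36.32, 35.94, 35.39 and 35.36 TPM in LLY-283 libraries. The treated values all lay inside the vehicle range. The log2 fold change of 0.02 (SE 0.0351, adjusted p = 0.778, limma) had a 95% interval of -0.06 to 0.09 on the TPM as deposited. The log2 fold change was 0.075 under median-of-ratios scaling (adjusted p = 0.123) and 0.087 with the GC and length trend removed (adjusted p = 0.0836), and the protein was not measured.

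In the MLX arm of the network neither gene tested passed the adjusted threshold. MLX (ENSG00000108788, chromosome 17, 42567072 to 42573239, plus strand, 8 exons) had 63.53, 61.15, 60.69 and 62.81 TPM in vehicle and 66.04, 69.45, 69.8 and 61.72 TPM in LLY-283 libraries. LLY-283 replicates 1 to 3 lay above all vehicle values and replicate 4 within them. The log2 fold change of MLX was 0.10 (SE 0.0428, 95% interval 0.01 to 0.20, adjusted p = 0.105, limma) and did not pass the adjusted threshold. It passed without LLY-283 replicate 4 (log2 fold change 0.14, adjusted p = 0.0115), under median-of-ratios scaling (adjusted p = 0.0169) and with the trend on GC content and length removed (adjusted p = 0.00865). MLXIP had 34.45, 38.66, 40.42 and 38.78 TPM in vehicle and 39.12, 41.82, 39.66 and 39.34 TPM in LLY-283 libraries, with overlapping groups (log2 fold change 0.07, 95% interval -0.04 to 0.19, adjusted p = 0.329). Without vehicle replicate 1, the lowest library, the log2 fold change of MLXIP was 0.025.

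**Figure D2:**
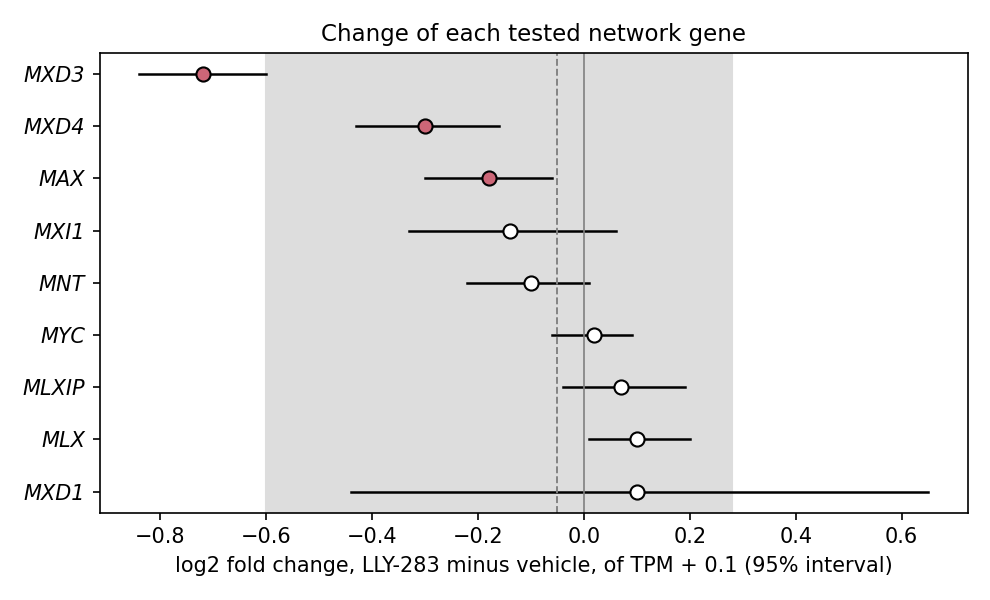
Log2 fold change (LLY-283 minus vehicle, of TPM + 0.1) of each tested network gene with its 95% interval. Filled points passed an adjusted p of 0.05, the dashed line is the median of all genes tested (-0.05) and the grey band spans their 5% to 95% quantiles (-0.60 to 0.28), which MXD3 at -0.72 lies outside.

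Because TPM values are divided by length, levels of different genes can be added or divided within a library. Ratios do not move with the scaling of the library, but sums do, and the sums below are of TPM as deposited. The median-of-ratios size factors were 1.01 to 1.04 in vehicle and 0.963 to 0.990 in LLY-283 libraries, so dividing by them would narrow a decrease of a sum. Sums and ratios are described here without a test, since they combine the genes above. The summed level of the 5 repressor partners of MAX (MNT, MXI1, MXD1, MXD3 and MXD4) was 77.8, 84.4, 82.3 and 81.7 TPM in vehicle and 62.4, 64.2, 64.2 and 59.3 TPM in LLY-283 libraries. The groups were apart, and MXD3 made up most of the gap, since the sum without MXD3 went from 45.6 ± 1.49 to 40.8 ± 2.16 TPM, again without overlap. MXD3 accounted for 44.1 ± 1.17% of the sum in vehicle and 34.8 ± 1.96% in LLY-283 libraries.

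Against this sum, the ratio of MYC rose in every treated library. MYC plus MYCN over the summed repressor partners was 0.447, 0.420, 0.450 and 0.419 in vehicle and 0.582, 0.560, 0.551 and 0.597 in LLY-283 libraries. The ratio of MYC to MXD3 went from 0.985 ± 0.0623, near parity, to 1.65 ± 0.115. The ratio of MYC to MAX went from 0.768 ± 0.0446 to 0.878 ± 0.0364, a smaller shift in which the groups did not overlap but lay close. In these ratios the numerator, MYC, was nearly level between the groups, and the denominators were lower in LLY-283 libraries.

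The ratios of the hubs moved differently. MLX over MAX went from 1.35 ± 0.121 to 1.64 ± 0.102. The groups did not overlap but lay close, with a highest vehicle value of 1.51 and a lowest LLY-283 value of 1.54. MLXIP over MLX was 0.614 ± 0.0523 and 0.600 ± 0.0287, and the groups overlapped. The summed partners of MAX over MAX itself, 2.54 ± 0.128 in vehicle and 2.41 ± 0.103 in LLY-283 libraries, overlapped as well.

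**Figure D3:**
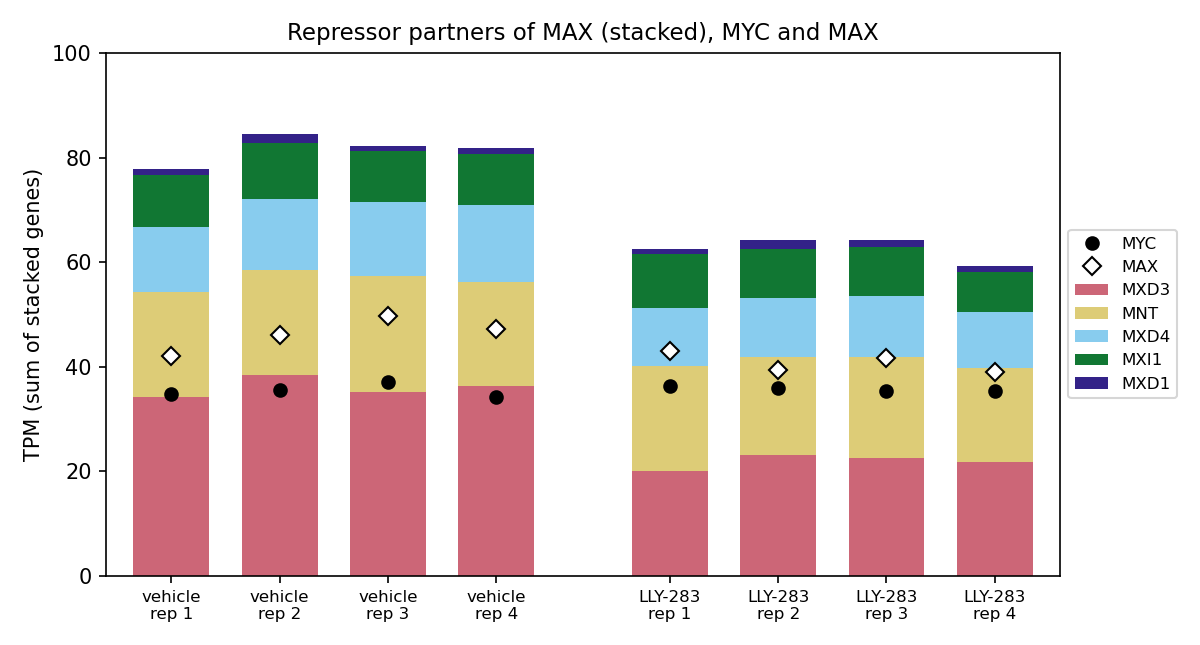
Stacked TPM of the 5 repressor partners of MAX in each of the 8 libraries, with MYC (black circles) and MAX (open diamonds) on the same linear axis from 0. The stacks reach 77.8 to 84.4 TPM in vehicle and 59.3 to 64.2 TPM in LLY-283 libraries, and MYC stays between 34.21 and 37.06 TPM throughout.

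The promoters of the network were searched for CACGTG, the element that its proteins bind. A window from 250 bases before to 50 bases after the start of the canonical transcript (GENCODE release 44, GRCh38) was used, and the motif is a palindrome that reads alike on both strands. The motif was present in 1755 of 20044 windows of protein-coding genes (8.8%) and in 4 of the 10 windows of the network, those of MAX, MNT, MXD4 and MLX. The window of MXD3 did not hold these letters. MXD4 and MAX, which hold a motif, decreased, MNT and MLX, which also hold one, did not pass the test, and MXD3, which holds none in this window, had the strongest decrease of the network. MXD3 also has longer transcripts that start further upstream, so that its window lies within the gene. The windows of MYC and MXD1, which hold no motif either, lie within their genes as well. A match describes letters in the window and is not a binding site.

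Several network genes share their locus with other genes, and the files and methods do not say whether counting used the strand, so these pairs carry some uncertainty. MXD3 overlaps RAB24, a small GTPase, on the same strand over 2284 bases, and PRELID1 on the opposite strand over 3151 bases. RAB24 had means of 27.6 and 26.3 TPM in vehicle and LLY-283 libraries (log2 fold change -0.07, adjusted p = 0.389) and PRELID1 of 184.2 and 200.7 TPM (0.12, adjusted p = 0.0788), so that neither passed the test. PRELID1 was called increased in 4 of 19 alternatives, under median-of-ratios scaling (adjusted p = 0.0335), without mitochondrial genes (0.0427), with the GC and length trend removed (0.00857) and without LLY-283 replicate 4 (0.0499). In the last of these its log2 fold change was smaller, at 0.074. MXD1, at little over 1 TPM, overlaps SNRNP27, a spliceosomal protein gene, on the same strand over 7888 bases, and SNRNP27 increased from 66.3 ± 1.28 to 73.4 ± 2.15 TPM (log2 change 0.15, adjusted p = 0.00901). On the opposite strand, MAX overlaps FNTB, which encodes a farnesyltransferase subunit, over 56479 bases, and FNTB increased from 23.8 ± 1.39 to 27.4 ± 1.16 TPM (log2 change 0.20, adjusted p = 0.0182), a call lost without vehicle replicate 1 (0.0510) or 4 (0.0506). The read-through gene CHURC1-FNTB, which overlaps MAX over 55630 bases, had means of 1.08 and 1.88 TPM (log2 change 0.71, adjusted p = 0.230), and CASC11, opposite MYC, lay at or below 0.17 TPM. MLX overlaps PSMC3IP, a meiotic recombination factor, over 930 bases on the opposite strand, and PSMC3IP decreased from 55.4 ± 3.52 to 39.1 ± 3.32 TPM (log2 change -0.50, adjusted p = 8.02e-04). Whether reads of these neighbors entered the values of the network genes was not tested.

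Genes known to be activated by MYC were described next, from a list of 38 written from general knowledge, of which 37 were tested. In it 19 genes increased and 0 decreased, 51.4% and 0% of those tested against 8.61% and 17.6% of all genes, and their median log2 fold change was 0.11, where that of all genes was -0.05. At an unadjusted p under 0.05, 20 were higher and 3 lower (ODC1, CAD and SHMT2). Of the 14478 genes tested, 5560 or more passed this threshold in either direction. The 19 were NCL, NOP2, NOP16, MRTO4, RRP9, RRP12, PPAN, POLR1B, GNL3, DDX18, WDR43, WDR74, MYBBP1A, TFB2M, NDUFAF4, GRWD1, PES1, NOLC1 and EIF4A1. The list as written holds mostly genes of the nucleolus and of ribosome assembly, so that such genes also make up most of the 19, and others of this kind were not called, namely NOP56 (log2 fold change -0.05), BOP1 (-0.04), RCL1 (0.00), NPM1 (0.08), FBL (0.10) and UTP20 (0.10). Of these, UTP20 was called increased under quantile normalization, median-of-ratios scaling and with the GC and length trend removed, and NPM1 and FBL in the last of these. The count of increased genes ranged from 15 to 24 over the 19 alternatives and the median from 0.10 to 0.20. Both upper values came with the GC and length trend removed, where 2801 of all 14457 genes increased and the median of all genes was 0.03. Whether MYC acts on these genes in U251 cells was not tested.

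By p-value the leading gene of this list was NOP2, an rRNA methyltransferase. NOP2 had 58.29, 57.3, 54.51 and 54.8 TPM in vehicle and 71.61, 79.32, 72.16 and 74.19 TPM in LLY-283 libraries, with a log2 fold change of 0.40 (SE 0.0409, adjusted p = 2.36e-04, limma). PES1, a ribosome assembly factor, had the largest fold change of the list, from 80.8 ± 3.70 to 107.1 ± 5.44 TPM (log2 change 0.41, adjusted p = 3.64e-04), and NCL, which encodes nucleolin, had a small one, from 818.0 ± 11.3 to 885.7 ± 25.8 TPM (0.11, adjusted p = 0.0138). The 7 genes of the list for metabolic enzymes had values on both sides of 0, and none of them passed the test. The LLY-283 values lay all below the vehicle values for CAD and all above them for HK2. ODC1, the first enzyme of polyamine synthesis, had a log2 fold change of -0.07 (adjusted p = 0.128), CAD, of pyrimidine synthesis, of -0.11 (adjusted p = 0.0624), SHMT2, of serine metabolism, of -0.08 (adjusted p = 0.125), and LDHA of -0.08 (adjusted p = 0.425). The spermidine synthase gene SRM had a log2 fold change of 0.00 (adjusted p = 0.994), PPAT, of purine synthesis, of 0.08 (adjusted p = 0.241), and the hexokinase gene HK2 of 0.08 (adjusted p = 0.162), and HK2 was called increased under median-of-ratios scaling and with the GC and length trend removed. Without LLY-283 replicate 4, ODC1 and SHMT2 were called decreased and 17 genes increased, without NDUFAF4 and GRWD1. PES1, NCL, the uncalled ribosome assembly genes and the metabolic genes were picked for mention after their values were seen.

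Of 11 genes known to be repressed by MYC, 8 were tested, and they moved in both directions, with 1 increased (12.5%, against 8.61% of all genes), 3 decreased (37.5%, against 17.6%) and a median log2 fold change of -0.04. THBS1, which encodes the antiangiogenic protein thrombospondin-1, had 115.75, 107.8, 118.46 and 113.51 TPM in vehicle and 163.86, 171.59, 174.56 and 161.46 TPM in LLY-283 libraries. Its log2 fold change was 0.56 (SE 0.0382, adjusted p = 4.25e-05, limma), and it ranked 26 by p-value. The cyclin-dependent kinase inhibitor gene CDKN1A went the other way, with 13.23, 13.6, 14.49 and 13.7 TPM in vehicle and 8.19, 7.67, 8.21 and 9.02 TPM in LLY-283 libraries (log2 fold change -0.73, adjusted p = 7.95e-05). CDKN1B (log2 fold change -0.13, adjusted p = 0.0220) and the stress gene GADD45A (-0.20, adjusted p = 0.00957) completed the decreased genes, and their calls were lost in 5 and 2 of 19 alternatives, for CDKN1B also without vehicle replicate 4 (adjusted p = 0.0619). Median-of-ratios scaling and removal of the GC and length trend each left 1 decreased gene, CDKN1A, and the median of the list lay between -0.10 and 0.03 over the alternatives.

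The targets of MLXIP and MLX were few. TXNIP, a glucose-responsive inhibitor of thioredoxin and of glucose uptake, had 52.61, 49.93, 58.28 and 58.82 TPM in vehicle and 51.84, 44.46, 43.04 and 42.49 TPM in LLY-283 libraries. It decreased with overlapping groups (log2 fold change -0.27, adjusted p = 0.0243, limma), and the call was lost in 8 of 19 alternatives, among them those without vehicle replicate 3 (adjusted p = 0.0742) or 4 (0.0727) and without LLY-283 replicate 2 (0.0666), 3 (0.0660) or 4 (0.0577). Its paralog ARRDC4 (43.2 ± 1.63 and 45.2 ± 1.65 TPM, log2 fold change 0.07, adjusted p = 0.260) and KLF10 (0.02, adjusted p = 0.742) did not pass the test, though ARRDC4 was called increased under median-of-ratios scaling (adjusted p = 0.0262) and with the GC and length trend removed (0.0181), and PKLR was under the filter. With a library left out, the log2 fold change of ARRDC4 lay between 0.04 and 0.09. Of the remaining factors of the network, MGA had a log2 fold change of 0.08 (adjusted p = 0.443), while MYCL (0.617 ± 0.0998 and 0.505 ± 0.139 TPM) and MLXIPL (1.03 ± 0.474 and 0.865 ± 0.0759 TPM) were under the filter.

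Among the 14 genes of the SIN3 corepressor that the MXD proteins recruit, 2 increased (14.3%, against 8.61% of all genes), 1 decreased (7.14%, against 17.6%) and the median log2 fold change was 0.01. The counts were 3 and 0 under median-of-ratios scaling, 5 and 0 with the GC and length trend removed, and 1 and 1 without LLY-283 replicate 4. Over all genes, these settings gave 2165 increased and 1714 decreased, 2801 and 1644, and 1508 and 2659, so the shares above do not apply to them. RBBP4, a histone-binding subunit, increased from 231.2 ± 8.55 to 259.4 ± 4.99 TPM (log2 change 0.17, adjusted p = 0.00481, limma). SAP18 also increased (0.18, adjusted p = 0.0470), a call lost in 10 of 19 alternatives that include 7 of the 8 omissions of a library (adjusted p = 0.0925 without LLY-283 replicate 4), and SAP30, a structural subunit, decreased from 44.8 ± 1.94 to 40.1 ± 0.622 TPM (-0.16, adjusted p = 0.0142), a call lost in 3. The scaffold genes SIN3A and SIN3B and the deacetylase genes HDAC1 and HDAC2 were not called, with log2 fold changes of -0.02, 0.09, -0.02 and 0.01.

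Of 15 genes for cofactors of MYC, 3 increased (20.0%, against 8.61% of all genes) and 1 decreased (6.67%, against 17.6%), with a median log2 fold change of 0.05. With the GC and length trend removed the counts were 5 and 1, where 2801 of all 14457 genes increased and 1644 decreased. CDK9, the kinase of the elongation factor P-TEFb, had 61.58, 68.5, 66.75 and 66.99 TPM in vehicle and 50.35, 50.85, 48.72 and 55.66 TPM in LLY-283 libraries. This was the strongest change of the list (log2 fold change -0.36, SE 0.0491, adjusted p = 9.16e-04, limma), and all treated values were below all vehicle values. Among the increased genes were HCFC1, a chromatin-associated host cell factor (log2 fold change 0.16, adjusted p = 0.00352), and ZBTB17, the partner with which MYC represses genes (0.14, adjusted p = 0.0283, lost in 7 of 19 alternatives).

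MAX also works with MGA in the Polycomb complex PRC1.6, and of its 13 genes listed 0 increased and 3 decreased (limma), with a median log2 fold change of -0.02. At an unadjusted p under 0.05 the counts were 0 and 5, a threshold that 5560 or more of the 14478 genes tested passed in either direction. The 3 are 23.1% of the list, near the 17.6% of all genes, and both quantile normalization and removal of the GC and length trend gave 1 increased and 1 decreased. Without LLY-283 replicate 4, TFDP1 was also called, which made 4 decreased, while 1 decreased, PCGF6, without vehicle replicate 2, 3 or 4 or LLY-283 replicate 1 or 2. PCGF6, the subunit that defines this complex, had 13.28, 12.31, 13.66 and 11.54 TPM in vehicle and 10.55, 9.54, 9.2 and 10.28 TPM in LLY-283 libraries, without overlap (log2 fold change -0.36, SE 0.0698, adjusted p = 0.00570, limma). RING1, a ubiquitin ligase (-0.18, adjusted p = 0.0250), and L3MBTL2 (-0.14, adjusted p = 0.0353) decreased by less, and their calls were lost in 9 and 11 of 19 alternatives. SAP18, HCFC1, ZBTB17, RING1, L3MBTL2, CDKN1B and GADD45A are named because the counts they belong to are small, after their values were seen.

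**Figure D4:**
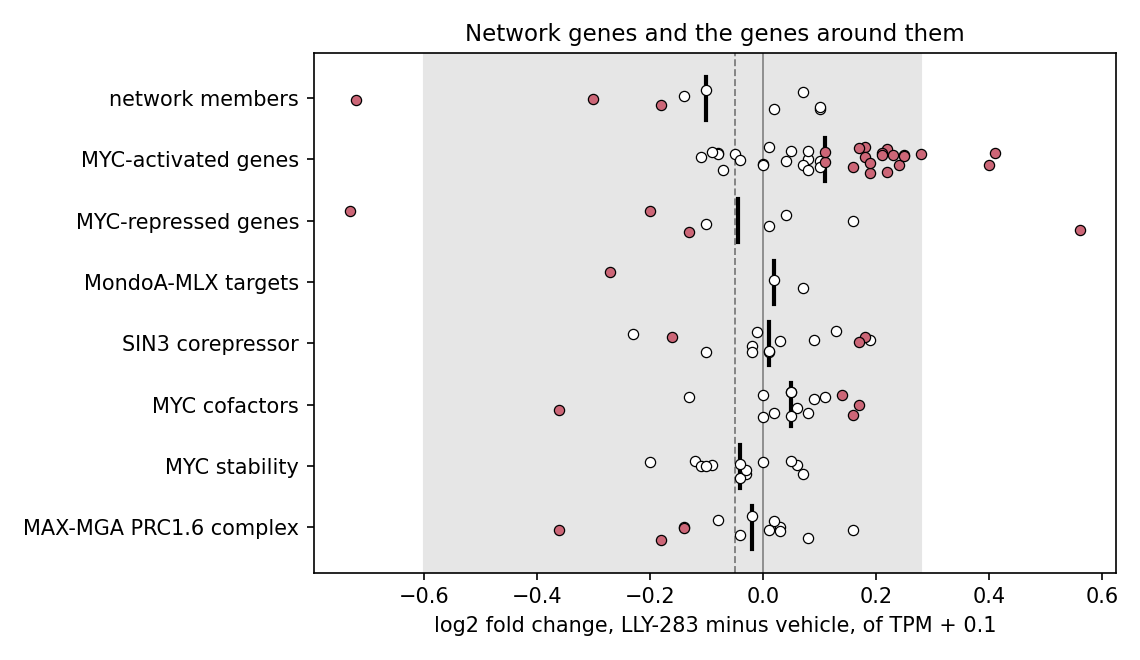
Log2 fold changes (LLY-283 minus vehicle, of TPM + 0.1) of the tested genes of the network and of 7 lists around it, 1 point per gene, spread vertically for legibility. Filled points passed an adjusted p of 0.05, black bars are list medians, the dashed line is the median of all genes tested (-0.05) and the grey band spans their 5% to 95% quantiles (-0.60 to 0.28). The MYC-activated genes have a median of 0.11 with 19 of 37 called, and CDKN1A and THBS1 stand at opposite ends of the MYC-repressed genes.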

How the data were processed

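RNA-seq was measured in 8 libraries of U251 cells, 4 exposed to vehicle and 4 to LLY-283. After adapter trimming (Cutadapt), the authors aligned reads to GRCh38 (STAR), ran RSEM with the genes of GENCODE release 41 and deposited its gene TPM with 2 decimals. The submitters' processing notes give Cutadapt 1.18, STAR 2.7.0f and RSEM 1.3.1, while the study's methods name other versions of STAR and RSEM. TPM keeps no depth and is relative to the library's composition. The strandedness of counting is not given in the sources used here.

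Genes averaging 1 TPM or more (14478) entered a comparison of both groups on log2(TPM + 0.1) by limma 3.58.1 (lmFit, eBayes with trend) in R 4.3.3, with Benjamini-Hochberg adjustment, an adjusted p threshold of 0.05 and no count test. The study used limma on counts, which were not used here. The fit was tested on simulated data. The network genes and the 9 gene lists, written from general knowledge, were chosen with earlier results of these data known, so no list is independent evidence. Named are all network genes, for each list and direction the called gene of lowest p-value, all genes of lists of 4 or fewer, PRMT5, CASC11 and protein-coding genes overlapping a network gene, and others picked after their values were seen; 1 gene that this rule names, 1 member of a list and some sequences are not reported here. Positions, exons and promoter windows came from GENCODE release 44 on GRCh38. The 19 alternatives were pseudocounts of 0.5 and 1, no filter, a filter at 5 TPM, quantile normalization, median-of-ratios scaling, omission of mitochondrial genes, eBayes without trend or robust, a block on replicate number, a fit after removing dependence on GC content and length (splines with 4 degrees of freedom, 14457 genes) and each library left out.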

Additional observations from a re-analysis of the deposited data

Results flagged for a closer look

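All tested genes of the network, the lists, the markers and the overlapping genes were checked in each group, 246 groups of 4 libraries in all, and 12 held a value set apart from the other 3 by Dixon's test, a test that by chance picks about 1 group in 20. MNT in vehicle replicate 3, at 22.12 TPM, lay above the other vehicle values of 19.84 to 20.12 TPM.

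In LLY-283 replicate 4, NCL (924.14 TPM), EIF4A1 (1596.97 TPM), SMARCB1 (98.73 TPM) and VIM (4390.24 TPM) lay above the other treated libraries, and SIN3B (34.02 TPM) lay below them. That library is also the one with 7.19% mitochondrial TPM, and the part of this in the 5 values was not tested. RBBP7 stood apart in LLY-283 replicate 3 (highest, 244.8 TPM). In vehicle libraries, SNRNP27 was apart in replicate 3 (highest, 68.24 TPM), ARID4B in replicate 2 (lowest, 15.44 TPM), and EP400 (lowest, 28.56 TPM), HUWE1 (lowest, 104.37 TPM) and CBX3 (highest, 460.11 TPM) in replicate 1.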

How the results depend on the processing

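MXD3 and MXD4 decreased in all 19 alternatives, with log2 fold changes of -0.75 to -0.61 and -0.35 to -0.20 and adjusted p-values of 2.61e-05 to 0.00113 and 0.00404 to 0.0280. MAX lost its call with no filter on low values (adjusted p = 0.0844), quantile normalization (0.0579), median-of-ratios scaling (0.0998), eBayes without trend (0.0681), the replicate block (0.0715), the GC and length trend removed (0.293), and without vehicle replicates 2, 3 or 4 or LLY-283 replicates 2, 3 or 4 (0.0647 to 0.102). The count of increased network genes was 1 (MLX) with median-of-ratios scaling and with the GC and length trend removed, and 0 to 1 with a library left out, where LLY-283 replicate 4 gave the 1. MYC-activated genes decreased numbered 2 (ODC1 and SHMT2) with quantile normalization and without mitochondrial genes, and 0 to 2 with a library left out, where LLY-283 replicate 4 gave the 2. MYC-repressed genes decreased numbered 1 with median-of-ratios scaling and with the GC and length trend removed. The cause was not tested.

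Uncalled values near 0 changed sign: MYC (-0.001 to 0.038 with a library left out), MXD1 (-0.022 to 0.263), KLF10 (-0.002 to 0.045), PRMT5 (-0.030 to 0.035, -0.004 with quantile normalization and -0.003 without mitochondrial genes) and RAB24 (0.037 with the GC and length trend removed). Replicates that share a number did not deviate together (correlations of -0.085 to 0.032, none best with its own number). Correlations this few cannot settle whether libraries of equal number were prepared together, and the labels do not say. The replicate block left 1095 increased and 2201 decreased genes over all genes, 2 of them in the network. The median of all genes moved from -0.05 to 0.01 under both other scalings and to 0.03 with the GC and length trend removed. TPM without depth limits what can be said of MXD1, MYCL, MLXIPL and MYCN.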

Other observations

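The turnover of the MYC protein is set by ubiquitin ligases, deubiquitinases and kinases, and 13 genes of this kind were measured (among them FBXW7, SKP2, HUWE1, USP28, USP36, AURKA, PLK1, GSK3B, PPP2R5A, CIP2A, PIM1 and STUB1). In the limma comparison 0 of them increased and 0 decreased, with log2 fold changes from -0.20 to 0.07 and a median of -0.04, where 8.61% of all genes increased and 17.6% decreased with a median of -0.05. At an unadjusted p under 0.05, 0 were higher and 2 lower (HUWE1 and STUB1), a threshold that 5560 or more of the 14478 genes tested passed in either direction. Over the alternatives up to 2 were called decreased (HUWE1 and STUB1, of which STUB1 was called without LLY-283 replicate 4 and HUWE1 without vehicle replicate 1) and 0 increased. The long noncoding gene PVT1, a neighbor of MYC on chromosome 8, had 224.5, 247.28, 231.37 and 240.51 TPM in vehicle and 250.52, 241.35, 233.36 and 265.89 TPM in LLY-283 libraries, with overlapping groups (log2 fold change 0.07, adjusted p = 0.287, limma), and it was called increased with the GC and length trend removed (log2 fold change 0.16, adjusted p = 0.0302). Without LLY-283 replicate 4 the log2 fold change of PVT1 was 0.04. MYCNOS, which overlaps MYCN over 1700 bases on the opposite strand, and MYCNUT, which lies beside MYCN, were listed at 0 in all 8 libraries, as MYCN was.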
